A study of Mus musculus with 10 samples.

Results

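Neurotrophins are secreted growth factors that keep neurons alive, shape dendrites and axons and strengthen synapses. Each one binds a Trk receptor tyrosine kinase with high affinity: BDNF binds TrkB, encoded by Ntrk2, and neurotrophin-3 (NT-3), encoded by Ntf3, binds mainly TrkC, encoded by Ntrk3. Precursor forms of these factors bind the p75 receptor, encoded by Ngfr, together with sortilin, encoded by Sort1, which also sorts BDNF into the secretory pathway. In the early postnatal cortex Bdnf is made mostly by excitatory neurons, whereas Ntrk2 is made by neurons and, as a form without a kinase domain, by astrocytes.

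The expression of these 6 genes, the 2 ligands Bdnf and Ntf3 and the 4 receptors Ntrk2, Ntrk3, Ngfr and Sort1, was compared between the 2 genotypes. They were found by gene symbol among the 18216 genes of the table of normalised counts, and all 6 had 1 row each. RNA came from the prefrontal cortex, taken on postnatal day 10 from 10 males of the C57BL/6N strain. Of these mice, 5 were heterozygous for an Arid1b mutation (HT) and 5 were wild type (WT), with 1 library per mouse. HT mice carried in all cells 1 copy of Arid1b cut around exon 5 with CRISPR/Cas9, which left a deletion with a short insertion that truncates the protein, and they came from HT fathers and WT mothers. The labels name no treatment in either group. They do not give litters or sequencing batches. Since the tissue was analysed in bulk, fewer cells of a type and less RNA per cell cannot be told apart.

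Totals of the normalised counts were between 31106330 and 32106791 per library, and sequencing depth is unknown, so that precision was taken from the spread between mice. Arid1b was lower in all 5 HT libraries than in any WT library, with a log2 difference of -0.59 (SE 0.05, limma adjusted p = 9.96e-05). The 6 markers of cortical glutamatergic neurons (among them Slc17a7, Neurod6, Neurod2, Tbr1 and Emx1) were present in each library, with a summed level of 49478 to 66464 in HT and 55773 to 69134 in WT. HT2, HT5 and WT4 stood apart from the other 7 libraries on the first principal component. HT2 also had the highest share of mitochondrial transcripts, 8.43% against 5.15% to 6.76%. In HT5, WT3 and WT5 the summed level of 8 striatum markers was 5259 to 5563, against 11523 to 17880 in the other 7 libraries. Both sets held mice of both genotypes (1 HT and 2 WT against 4 HT and 3 WT). Even so, fitted differences (HT minus WT) were positive for 8 of 8 striatum markers, with a median of 0.48 on the log2 scale. The same held for 5 of 5 olfactory bulb markers, with a median of 0.57. In both lists 0 had an unadjusted p under 0.05 with limma. Of 8 astrocyte markers, 8 had a positive fitted difference (HT minus WT) and 5 had an unadjusted p under 0.05, beside 4.71% of all genes higher at that p. Their summed level was 156139 to 199223 in HT and 142599 to 168392 in WT. Fitted differences were also positive for 6 of 6 microglia markers, 5 of 5 of oligodendrocyte precursors and 6 of 6 of oligodendrocytes, of which 1, 1 and 0 had an unadjusted p under 0.05. Outside the glia they were positive for 6 of 7 endothelial and mural markers and 4 of 7 of meninges, with 0 at that p. Over all 16781 genes tested, 8194 had a positive difference.

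At the level of the whole group, none of the 6 genes differed between genotypes after adjustment. With limma, 0 of 6 had an adjusted p under 0.05, where 0.0179% of all 16781 genes tested did. At an unadjusted p under 0.05 there was 1 gene lower in HT (Bdnf) and 0 higher, where 9.23% of all genes passed (4.52% lower and 4.71% higher). By exact two-sided permutation of the 10 mice, 0 of 6 had a p under 0.05. The ranges of the 2 genotypes overlapped for all 6 genes, and 1.62% of all genes tested were without overlap. Fitted differences were positive for 3 and negative for 3, with a median of 0.00058 on the log2 scale beside -0.0035 over all genes.

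**Figure D1:**
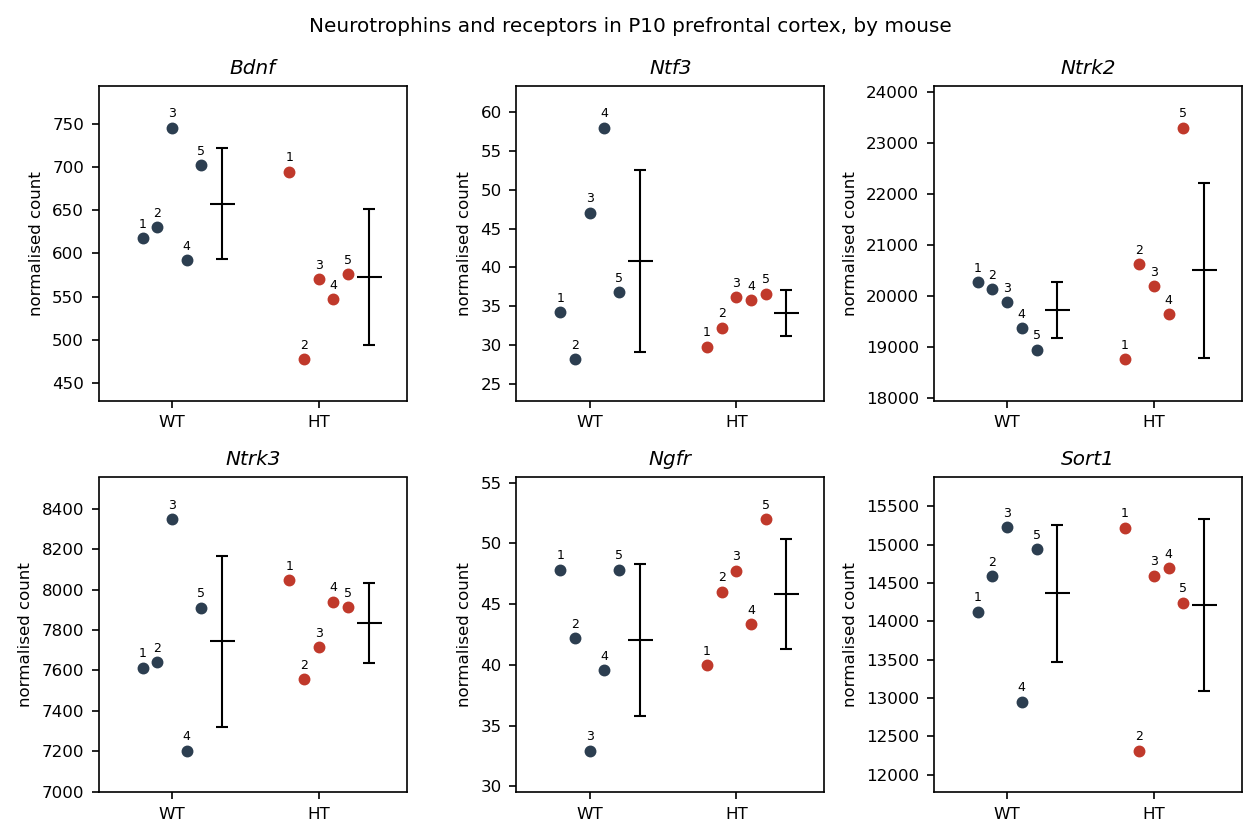
Normalised counts of the 6 genes in each mouse, with WT in dark and HT in red, the replicate number above each point, and the mean with its SD (n = 5) at the right of each group. The axes do not start at 0. For Bdnf, 4 of 5 HT mice lay below all WT mice, while the groups were mixed for the other genes.

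Bdnf was the member with the smallest p, and it was lower in HT in most mice. The gene (ENSMUSG00000048482) lies on GRCm38 chromosome 2, 109674700 to 109727007, plus strand, and encodes brain-derived neurotrophic factor. Its transcription begins at several alternative first exons that are spliced to one shared coding exon, and the most studied of these promoters responds to neuronal activity through CREB and related factors. The deposited value is 1 sum over all starts. RefSeq (GRCm38.p6) gives 7 starts for Bdnf, and the 60 bases before each are shown because the value cannot say which of them was used. Windows of 300 bases around each start were searched on both strands for the CREB site TGACGTCA and for the variant TCACGTCA. The only match was TCACGTCA 38 to 31 bases before the third start, printed in capitals.
start 1, chr2:109674640-109674699: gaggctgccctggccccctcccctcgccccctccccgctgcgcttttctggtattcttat
start 2, chr2:109676972-109677031: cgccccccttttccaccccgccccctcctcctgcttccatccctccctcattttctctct
start 3, chr2:109692376-109692435: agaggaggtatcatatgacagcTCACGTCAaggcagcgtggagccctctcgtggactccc
start 4, chr2:109692967-109693026: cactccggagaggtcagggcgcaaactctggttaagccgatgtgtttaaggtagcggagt
start 5, chr2:109694349-109694408: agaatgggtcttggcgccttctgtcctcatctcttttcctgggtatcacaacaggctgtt
start 6, chr2:109709323-109709382: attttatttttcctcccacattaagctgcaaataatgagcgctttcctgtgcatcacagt
start 7, chr2:109722861-109722920: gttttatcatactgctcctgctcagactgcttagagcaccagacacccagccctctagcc

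Of 32851 such windows in RefSeq, 0.441% held TCACGTCA and 1.79% held TGACGTCA. The windows of Ntf3 (2 starts), Ntrk2 (1 start) and Ngfr (1 start) held neither. Those of Ntrk3 and Sort1 were not analysed here. A match in these letters is a description of the sequence and not evidence of binding.

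In the HT mice the normalised count of Bdnf was 694 in HT1, 477 in HT2, 569.9 in HT3, 547 in HT4 and 576 in HT5. In the WT mice it was 617, 630.4, 745, 592 and 702 in WT1 to WT5. Thus 4 of 5 HT mice lay below all WT mice, and HT1 lay above 3 of the 5 WT mice. Means were 573 ± 78.4 in HT and 658 ± 64.0 in WT (SD, n = 5 mice each), which puts HT at 87.1% of WT. The log2 difference was -0.20 (SE 0.09, 95% interval -0.41 to -0.00039), with a limma unadjusted p of 0.0496 and an adjusted p of 0.54. By exact permutation the p was 0.0952, where the smallest that 5 against 5 mice can give is 0.00794. The spread of Bdnf between mice of a genotype was larger than usual for its level, at 0.17 on the log2 scale against a median of 0.11 among 500 genes of similar mean.

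How far the Bdnf difference changed with marker levels depended on the markers. With the striatum marker score as a covariate it was -0.17 (limma unadjusted p = 0.10), and with the astrocyte marker score -0.05 (limma unadjusted p = 0.63). In the 7 libraries with high striatum markers (4 HT and 3 WT) it was -0.11 (limma unadjusted p = 0.34). Without HT1 it was -0.28 (limma unadjusted p = 0.0065), and without HT2 -0.14 (limma unadjusted p = 0.13). Summed levels of the glutamatergic markers were lowest in HT2 (49478) and WT4 (55773), which also had the lowest Bdnf value of their genotype, and were 59689 to 69134 in the other 8 libraries. Fitted differences were negative for 5 of these 6 markers (beside 51.2% of all genes), 1 of them at an unadjusted p under 0.05 (beside 4.52%). Summed levels of 5 olfactory bulb markers were highest in the same 2 libraries, HT2 (3183) and WT4 (3085), and 511 to 1814 in the other 8. The part of these tissues and cell types in the Bdnf result was not tested further. An antisense gene, Gm45346, overlaps exons of Bdnf on the minus strand and was listed at 1.96 to 9.75 per library, beside 477 to 745 for Bdnf.

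Ntf3, which encodes NT-3, was expressed far below Bdnf. It lies on GRCm38 chromosome 6, 126101412 to 126166910, minus strand (ENSMUSG00000049107). HT values were narrowly spread, at 29.8, 32.3, 36.2, 35.8 and 36.6 in HT1 to HT5. WT values were 34.2, 28.2, 47.0, 58.0 and 36.8 in WT1 to WT5, so that WT3 and WT4 were the highest of all mice and WT2 the lowest. The mean was 34.1 ± 2.98 in HT and 40.9 ± 11.8 in WT (SD, n = 5 mice each). The log2 difference was -0.21 (SE 0.20, 95% interval -0.65 to 0.22, limma adjusted p = 0.73). Without WT4 it was -0.08. At these low values the interval is wide enough to hold a difference of the size seen for Arid1b.

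Per kilobase of the longest coding transcript, the mean level over all mice was 144 for Bdnf and 25.3 for Ntf3. Cortical Ntf3 is known to decline after birth while Bdnf climbs, so the log2 ratio of Bdnf to Ntf3 normalised counts was taken in each mouse. It was 4.06 ± 0.27 in HT and 4.05 ± 0.43 in WT (SD, n = 5 mice each), a difference of 0.01. HT values ran from 3.89 to 4.54 and WT values from 3.35 to 4.48, with the lowest in WT4. The ratios of the 2 genotypes overlapped, and no test was run on them.

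The Trk receptors had some of the highest normalised counts of the tissue, which are not corrected for transcript length. Ntrk2 had a higher normalised count than 99.1% of all genes in the table, and Ntrk3 than 96.2%. Ntrk2 (ENSMUSG00000055254) lies on GRCm38 chromosome 13, 58806569 to 59133970, plus strand. GENCODE M21 lists 7 coding transcripts for it, of which 2 encode 821 residues, the form with the kinase domain. The other 5 encode 466 to 492 residues, too few to hold the kinase domain. The gene value adds these forms and cannot show a shift between them.

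Ntrk2 counts were 18759, 20622, 20189, 19645 and 23299 in HT1 to HT5 and 20269, 20137, 19872, 19371 and 18945.5 in WT1 to WT5. HT5 was the highest and HT1 the lowest of all mice, so the HT values enclosed the WT values. Means were 20503 ± 1711 in HT and 19719 ± 552 in WT (SD, n = 5 mice each). The log2 difference was 0.05 (SE 0.06, 95% interval -0.07 to 0.17, limma adjusted p = 0.76). It was 0.01 without HT5, and it turned to -0.03 with the astrocyte marker score as a covariate. HT5 also had the highest Ntrk2 value beside the second highest summed astrocyte markers (189723), whereas HT2 had the highest astrocyte markers (199223) and an Ntrk2 value of 20622.

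**Figure D2:**
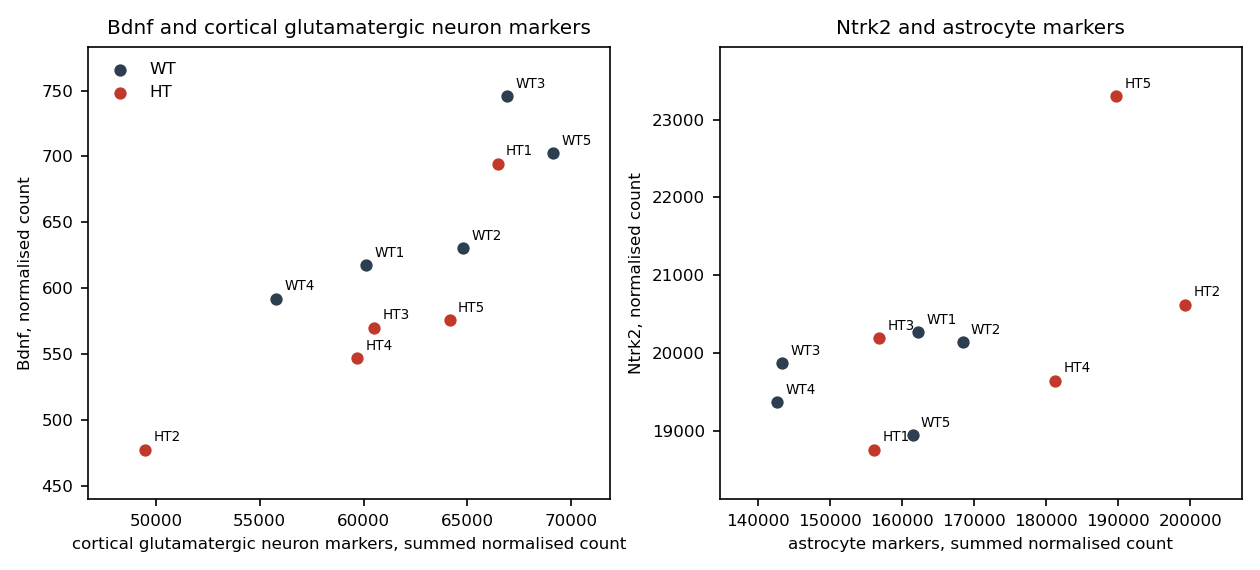
Normalised count of Bdnf against the summed normalised count of 6 cortical glutamatergic neuron markers (left), and of Ntrk2 against that of 8 astrocyte markers (right), in each mouse (WT dark, HT red). Axes do not start at 0. HT2 is lowest on both axes of the left panel, and HT5 (23299) stands alone at the top for Ntrk2.

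Ntrk3, the receptor for NT-3, had the most even values of all 6 genes. It lies on GRCm38 chromosome 7, 78175959 to 78738012, minus strand (ENSMUSG00000059146), and its coding transcripts in GENCODE M21 include forms of 825, 839 and 864 residues and a shorter one of 612. Counts were 8048, 7557, 7716, 7939 and 7913 in HT1 to HT5 and 7613, 7640.2, 8349, 7202 and 7911 in WT1 to WT5. All HT values lay between WT4 and WT3, the lowest and highest mice. Means were 7835 ± 196 in HT and 7743 ± 423 in WT (SD, n = 5 mice each). The log2 difference was 0.02 (SE 0.04, 95% interval -0.08 to 0.11, limma adjusted p = 0.91). In this fit the interval does not reach beyond 0.11 in either direction on the log2 scale. With only the 7 libraries high in striatum markers the difference was 0.06 (SE 0.06). As for Ntrk2, the gene value adds all forms and cannot show a shift between them. The log2 ratio of Ntrk2 to Ntrk3 was 1.38 ± 0.13 in HT and 1.35 ± 0.09 in WT (SD, n = 5 mice each), with HT5 the highest of all mice at 1.56.

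The receptors for the precursor forms lay at opposite ends of expression. Ngfr (ENSMUSG00000000120, GRCm38 chromosome 11, 95568818 to 95587735, minus strand) encodes p75, which is known to be high in the embryonic brain and to fall after birth. Its count was 40.0, 46.0, 47.8, 43.4 and 52.0 in HT1 to HT5 and 47.9, 42.2, 32.9, 39.6 and 47.8 in WT1 to WT5. HT5 was the highest mouse and WT3 the lowest, and the other 8 were mixed. Means were 45.8 ± 4.54 in HT and 42.1 ± 6.25 in WT (SD, n = 5 mice each), with a log2 difference of 0.13 (SE 0.16, 95% interval -0.22 to 0.47, limma adjusted p = 0.80). Without WT3 the difference was 0.04, and with the astrocyte marker score as a covariate it was 0.0004. The spread of Ngfr was small for its level, at 0.18 on the log2 scale against a median of 0.33 among 500 genes of similar mean.

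Sort1 (ENSMUSG00000068747, GRCm38 chromosome 3, 108284082 to 108361511, plus strand) encodes sortilin, and its count exceeded that of 98.5% of genes. Counts were 15226, 12312, 14594, 14696 and 14242 in HT1 to HT5 and 14129, 14586, 15232, 12950.5 and 14946 in WT1 to WT5. HT2 and WT4 were the lowest mice, 1 of each genotype, and the others lay close together. Means were 14214 ± 1120 in HT and 14369 ± 894 in WT (SD, n = 5 mice each). The log2 difference was -0.02 (SE 0.06, 95% interval -0.15 to 0.12, limma adjusted p = 0.94), and its sign changed to positive without HT2 (0.03). Per kilobase of the longest coding transcript, mean levels fell from Ntrk2 (2300.0) and Sort1 (2091) over Ntrk3 (395) and Bdnf to Ntf3 and Ngfr (12.8). With all annotated exons as the length, Sort1 stood above Ntrk2 and the order of the others was the same, with Ntrk3 at 258. With the transcript of the most codons as the length, Ntrk3 stood above all the others, at 2808 per kilobase.

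**Figure D3:**
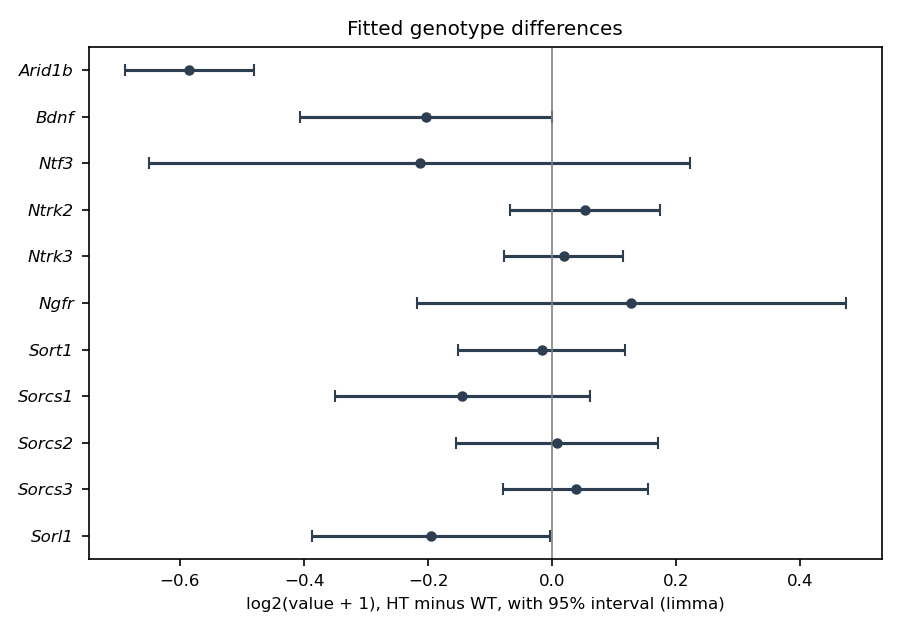
Fitted differences between genotypes on the log2(value + 1) scale (points, HT minus WT) with 95% intervals from limma, for Arid1b, the 6 genes and 4 sorting receptor genes. The interval of Arid1b lies far from 0, those of Bdnf and Sorl1 end just below 0, and those of Ntrk2, Ntrk3 and Sort1 are narrow around 0.

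The 6 genes were also compared with each other across the 10 mice, as 15 pairs on the log2(value + 1) scale. The highest correlations joined Sort1 to Ntrk3 and to Bdnf. For Ntrk3 and Sort1 Pearson's r was 0.77 (permutation p = 0.0076, adjusted 0.068) and Spearman's rho was 0.89 (permutation p = 0.0014, adjusted 0.021). Without WT3 and WT4, the mice farthest from the median of Ntrk3, r was 0.69. It was 0.75 within the 7 libraries with high striatum markers, 0.87 without HT2, HT5 and WT4, and 0.80 on deviations from the genotype means. For Bdnf and Sort1 r was 0.76 (permutation p = 0.0090, adjusted 0.068) and rho was 0.65 (permutation p = 0.048, adjusted 0.36). Without HT2 and WT3 that r was 0.42, so that the relation rests in part on these mice. It was 0.71 within the 7 libraries, 0.67 without HT2, HT5 and WT4, and 0.86 on deviations from the genotype means. The other 13 pairs had an adjusted permutation p of at least 0.36 by rho and 0.41 by r. Among them, Bdnf and Ntrk3 had an r of 0.55 (permutation p = 0.093, adjusted 0.41) and of 0.79 on deviations from the genotype means, close to that of Ntrk3 and Sort1. Their rho was 0.43 (permutation p = 0.22, adjusted 0.54), and r was 0.26 without HT2 and WT3. Bdnf and its receptor Ntrk2 had an r of -0.43 (permutation p = 0.22, adjusted 0.52) and a rho of -0.53 (permutation p = 0.12, adjusted 0.37).

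**Figure D4:**
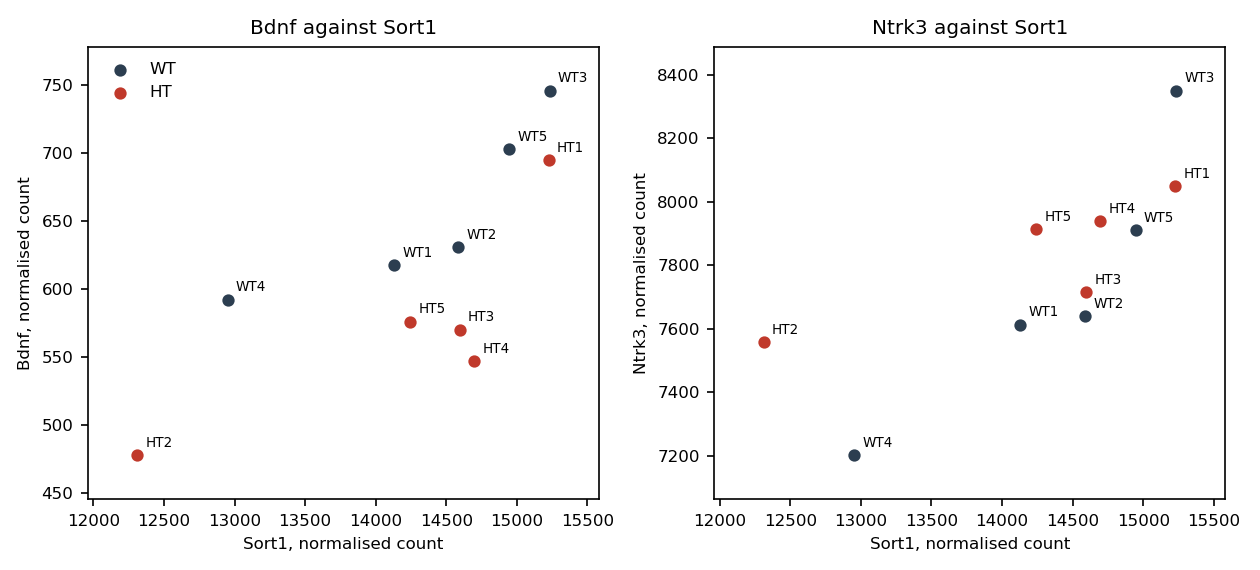
Normalised counts of Bdnf (left) and Ntrk3 (right) against those of Sort1 in each mouse, with WT in dark and HT in red. Axes do not start at 0. HT2 and WT4 sit at the low end of Sort1 in both panels and HT1 and WT3 at the high end, while HT3, HT4 and HT5 lie below WT1 and WT2 for Bdnf.

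Genes with the most similar profile over the 10 mice were looked up by Pearson's r among up to 13888 genes with a mean of at least 50, as a description. For Bdnf they were Ctxn1 (r = 0.98), Suclg1 (0.96) and Rtn4rl2 (0.96), the last encoding a Nogo receptor homologue. For Sort1 they were Pcsk2 (0.98), Cab39 (0.98) and Kcna6 (0.97). Pcsk2 encodes a proprotein convertase of the regulated secretory pathway. For Ntrk2 they were Tgm2 (0.954), Myo1f (0.954) and S1pr3 (0.94), encoding transglutaminase 2, an unconventional myosin and a sphingosine-1-phosphate receptor. For Ntrk3 they were Idh3g (0.91), Crcp (0.902) and Mtmr12 (0.900), for Ngfr Tmem256 (0.93), Lpar1 (0.92) and Polr3b (0.89), and for Ntf3 Mmab (0.94), Ptrhd1 (0.91) and Gm49493 (0.898). These are the highest of many values over 10 mice and carry no test.

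Relatives of sortilin were examined next. Sorl1, a sortilin relative that sorts amyloid precursor protein and binds the TrkB receptor, was 8479 ± 830 in HT and 9735 ± 1190 in WT (SD, n = 5 mice each). Its log2 difference was -0.20 (SE 0.09, limma unadjusted p = 0.046, adjusted p = 0.53). All 5 HT values were below the WT mean but only HT2 lay below all WT mice. Differences for the sorting receptors Sorcs1, Sorcs2 and Sorcs3 were -0.15, 0.01 and 0.04 (limma adjusted p = 0.62, 0.98 and 0.83).

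Around these genes, 133 other genes of neurotrophin processing and signalling were listed in 9 groups, of which 131 were in the table and 130 were tested. With limma 0 of 130 had an adjusted p under 0.05. At an unadjusted p under 0.05 there were 5 higher in HT (3.85%, beside 4.71% of all genes) and 7 lower (5.38%, beside 4.52%). The ranges of the genotypes were without overlap for 3 genes, all higher in HT (2.31%, beside 0.703% of all genes), and for 0 lower (beside 0.918%). Fitted differences were negative for 75 of 130 (57.7%, beside 51.2% of all genes), with a median of -0.02. The counts were unstable: the number higher ran from 2 (without HT5 or WT3) and 3 (without WT5) to 8 (without HT4 or WT4), and the number lower from 3 (without HT5) and 4 (without WT1) to 11 (without WT4) and 14 (without HT3). With the astrocyte marker score as a covariate 0 were lower.

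Among 12 genes of proneurotrophin processing and sorting tested, 1 was higher at an unadjusted p under 0.05 (8.33%, beside 4.71% of all genes) and 0 lower. This was Cpe, encoding carboxypeptidase E, which trims prohormones and helps to sort BDNF, at 51031 ± 4325 in HT and 46149 ± 2089 in WT (SD, n = 5 mice each), a log2 difference of 0.14 (SE 0.06, limma adjusted p = 0.53). Among 21 Trk adaptors and docking proteins, 1 was higher (4.76%, beside 4.71% of all genes) and 3 lower (14.3%, beside 4.52%) at that p. Gab1, a docking protein, had 808 ± 98.0 in HT and 678 ± 104 in WT (SD, n = 5 mice each), with a difference of 0.26 (SE 0.11, limma adjusted p = 0.51). Ptprs, a receptor phosphatase, had the smallest p of the 3 lower ones, with a difference of -0.11 (SE 0.04, limma adjusted p = 0.50). The other two were Sos1, a Ras exchange factor, at -0.14, and Kidins220, a scaffold that binds Trk receptors and p75, at -0.10 (limma adjusted p = 0.51 for both). They are named because they are the genes behind a count and were chosen after their values were seen.

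In the kinase cascades, 1 of 22 genes was higher at an unadjusted p under 0.05 (4.55%, beside 4.71% of all genes). It was Rps6ka1, encoding an ERK-activated ribosomal S6 kinase, with a difference of 0.20 (SE 0.08, limma adjusted p = 0.51). Of 18 partners and proteases of p75, 0 passed that p in either direction with limma (beside 9.23% of all genes), and differences ran from -0.17 for Lingo1, a p75 co-receptor, to 0.39 for Mag, a myelin ligand of the p75 complex. The 6 oligodendrocyte markers had a summed level of 58502 to 86116 in HT and 32730 to 88640 in WT, with the lowest in WT3, and their part in the Mag value was not tested. Values of Ncstn, a subunit of the gamma-secretase that cuts p75, did not overlap between groups (2268 to 2349 in HT and 2112 to 2247 in WT, 1 of 18 or 5.56% beside 0.703% of all genes), at a limma adjusted p of 0.55. It too was singled out after its values were seen.

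Of 12 genes of Trk trafficking and turnover, 10 had a negative difference (83.3%, beside 51.2% of all genes) and 2 an unadjusted p under 0.05, both lower (16.7%, beside 4.52%). Ptprf, a receptor phosphatase known to bind TrkB, was 4647 ± 461 in HT and 5518 ± 401 in WT (SD, n = 5 mice each), a difference of -0.25 (SE 0.07, limma adjusted p = 0.41). The other was Snx16, a sorting nexin of endosomes, at -0.23 (limma adjusted p = 0.49), also named after its values were seen. Of 16 transcription factors that act on Bdnf, 1 was higher at that p (6.25%, beside 4.71% of all genes). Usf2, which binds E-box elements including one at an activity-responsive Bdnf promoter, was 2386 to 2553 in HT and 2212 to 2346 in WT, without overlap (1 of 16 or 6.25%, beside 0.703% of all genes). Its difference was 0.12 (SE 0.04, limma adjusted p = 0.47).

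Genes that BDNF or ERK signalling is known to induce had fitted differences of both signs. Of 24 tested, 11 had a positive and 13 a negative difference (54.2%, beside 51.2% of all genes), with a median of -0.01. Npy, the gene of neuropeptide Y, which BDNF promotes in cortical interneurons, was 1757 to 1875 in HT and 1561 to 1682 in WT, without overlap. It was 1 of 24 both for no overlap (4.17%, beside 0.703% of all genes higher) and for a higher value at an unadjusted p under 0.05 (beside 4.71%). Its difference was 0.17 (SE 0.04, limma unadjusted p = 0.0016, adjusted p = 0.39). Arc was the only one of the 24 that was lower at an unadjusted p under 0.05 (4.17%, beside 4.52% of all genes), with a difference of -0.30 (SE 0.11, limma adjusted p = 0.49). The 5 markers of GABAergic interneurons had a summed level of 12221 to 13629 in HT and 12469 to 14437 in WT, which overlapped.

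**Figure D5:**
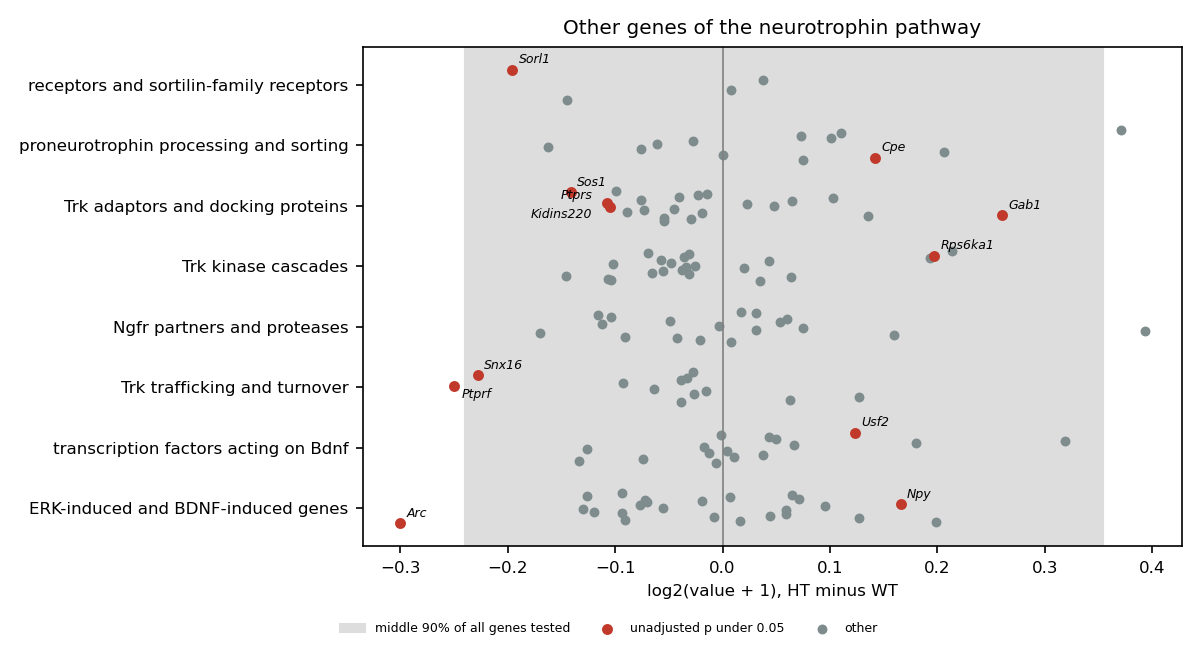
Fitted differences between genotypes (log2(value + 1), HT minus WT) of the other pathway genes tested, ligands left out, 1 point per gene and 1 row per group, with genes at a limma unadjusted p under 0.05 in red and named and the middle 90% of all genes shaded. Most points lie within 0.2 of 0, and no gene has an adjusted p under 0.05.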

How the data were processed

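The authors estimated transcript abundance with Salmon 1.1.0 on GRCm38 with GC bias correction from paired-end, poly-A, stranded libraries, summed it to genes with tximport, and deposited a signal per gene: counts divided by DESeq2 (1.30.1) size factors, called the normalised count here. The annotation release and the filter on low genes (lowest row total 41.7) are not given in the sources used here. Between 13.7% and 40.1% of values under 20 were whole multiples of 1 step (tolerance 0.05), so that whole reads could not be recovered and count models were not used.

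Symbols and positions came from GENCODE M21 (GRCm38), in which 18205 of 18216 identifiers were found. Values were tested as log2(value + 1) in limma 3.58.1 (R 4.3.3; lmFit, eBayes with trend) with genotype as the only factor, over 16781 genes with a mean of at least 10, with Benjamini-Hochberg adjustment and a threshold of 0.05. Such differences understate changes of low genes. Intervals are limma's 95% confidence intervals. Exact permutation used all 252 assignments of 5 of 10 mice. Correlations used 100000 permutations, with adjustment over 15 pairs. The rest was done in Python 3.11.15 (scipy 1.17.1, pandas 2.3.3, numpy 2.4.6). The limma step was tested on simulated data.

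The 6 genes and all lists were chosen with earlier results of these data known. The rule for naming pathway genes took the remaining ligands and receptors of the family, some of which are not reported here, and in each list the gene with the smallest unadjusted p in each direction if under 0.05. Sos1, Kidins220, Snx16, Ncstn, Lingo1 and Mag lie outside it and were chosen after their values were seen. Of all 31-base words in the transcripts of each of the 6 genes, at most 1.26% (Ngfr) occurred in transcripts of other genes. Promoter windows of 300 bases were from RefSeq.

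The fit was repeated with a pseudocount of 0.5 or 10, without the filter on low values or with one at 50, after quantile normalisation or upper-quartile rescaling, with sample quality weights, without the variance trend, with each mouse left out, with a block for replicate number, and with marker scores (mean z-score over the list) of striatum or astrocytes as a covariate. Added after seeing the data were fits without HT2, HT5 and WT4, and with only the 7 libraries high in striatum markers.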

Additional observations from a re-analysis of the deposited data

Results flagged for a closer look

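Within each genotype, the 6 genes, 6 related ligand and receptor genes and the 2 ratios were examined for a mouse set apart from the other 4, by the gap to its neighbour over the range of the group. Of 28 groups 2 exceeded the critical value of 0.71, where chance gives about 1.4. Sorl1 in HT2 was 7024, against 8583 to 9037 in the other HT mice (0.774). The log2 ratio of Bdnf to Ntf3 in HT1 was 4.54, against 3.89 to 3.98 in the other HT mice (0.862).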

How the results depend on the processing

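No call on the 6 genes changed under any alternative: each kept an adjusted p over 0.05, and Arid1b stayed past the threshold, from -0.63 to -0.55. Over all genes, 3 or 4 passed it. Bdnf stayed negative (-0.28 to -0.14 with 1 mouse left out, of which 3 of 10 fits had an unadjusted p under 0.05, and -0.21 to -0.05 otherwise), and Ntf3 too (-0.33 to -0.08 with 1 mouse left out). Ngfr stayed positive, at 0.0446 to 0.176 with 1 mouse left out, 0.0004 with the astrocyte score, 0.0439 without HT2, HT5 and WT4, 0.0353 with only libraries high in striatum markers and 0.0611 to 0.1357 otherwise. Both Ntf3 and Ngfr fall out under a filter at a mean of 50. Ntrk2 turned negative with the astrocyte score (-0.0329), without HT2, HT5 and WT4 (-0.0203) and with only libraries high in striatum markers (-0.0095), and was 0.0058 to 0.08 with 1 mouse left out. Ntrk3 was -0.0074 (without WT4) to 0.0459 with 1 mouse left out, 0.0468 with the astrocyte score, 0.0526 with quantile normalisation and 0.0623 with only libraries high in striatum markers. Sort1 turned positive with quantile normalisation (0.0261), sample quality weights (0.0066), the astrocyte score (0.0723), without HT2, HT5 and WT4 (0.0116) and with only libraries high in striatum markers (0.0298), and ran from -0.054 to 0.0338 with 1 mouse left out. The cause was not tested.

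Of pathway genes at an unadjusted p under 0.05, those higher in HT numbered 3 with sample quality weights, 8 without HT2, HT5 and WT4, 2 with only libraries high in striatum markers and 2 to 8 with 1 mouse left out (5 reported). Those lower numbered 0 with the astrocyte score, 3 without HT2, HT5 and WT4, 3 with only libraries high in striatum markers and 3 to 14 with 1 mouse left out (7 reported).

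Replicate numbers 1 to 5 recur in both groups but belong to different mice. Deviations of same-numbered mice correlated by -0.041 to 0.10, with a mean of 0.0375 against -0.00909 for other pairs. Since the labels give no litters or batches, these correlations cannot decide whether same-numbered mice were paired. With the replicate block Bdnf was -0.20 (adjusted p 0.55), 3 genes passed, and no call changed.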
